A study of Mus musculus with 6 samples.

Results

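Fibroblasts that carried RNA of Pi16 or Cd248 were examined among sorted non-myocyte heart cells profiled by droplet single-cell RNA-seq. A fibroblast was gated as a barcode with at least 1000 UMIs (unique molecular identifiers, one per captured RNA molecule), a UMI of at least 4 of the 7 genes Col1a1, Dcn, Lum, Dpep1, Pdgfra, Gsn and Dpt, and at most 1 UMI of the mesothelial genes Msln and Upk3b together. Members were chosen by measured values: beyond the gate, each had at least 1 UMI of Pi16 or Cd248. Of 18283 deposited barcodes 12493 were kept, 1213 of these were gated as fibroblasts, and 1111 fibroblasts were members, which left 102 other fibroblasts. Pi16 alone chose 755 members, Cd248 alone chose 13, and 343 had a UMI of both genes. At the edge of the rule, 67 members had exactly 1 UMI of the 2 genes together, 5 members had exactly 4 of the 7 fibroblast genes, and 27 barcodes with 3 of the 7 genes were left outside.

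All hearts came from C57BL/6 mice aged 3 to 6 months, and all mice carried Wt1CreERT2, an inducible Cre recombinase driven by the gene of the epicardial factor Wt1, and the Rosa26mTmG reporter, which changes from membrane Tomato to membrane EGFP where Cre has acted. The 3 control libraries had no further allele (Wt1CreERT2:Rosa26mTmG), and the 3 Dsp_het libraries also carried 1 floxed allele of the desmosome gene desmoplakin (Wt1CreERT2:Rosa26mTmG:DspW/F). Collagenase II perfusion released the cells, the myocytes were set aside, and flow sorting for EGFP gave the input of the 10x Chromium libraries. The model is therefore limited to cells, and descendants of cells, in which a Wt1-driven Cre had acted. Nothing in the labels says that each library came from a separate animal, so p-values measure the spread between these libraries.

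Pi16 encodes a secreted peptidase inhibitor, and Cd248 (endosialin) a cell surface glycoprotein of stromal cells. In many organs, fibroblasts with RNA of Pi16, Dpp4, Ly6a and Cd248 lie in the adventitia of larger vessels and are regarded as a reservoir from which more specialised fibroblasts can arise. Fibroblasts between the cells of the tissue proper are usually marked instead by genes such as Col15a1, Hsd11b1 and Cxcl14.

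Pi16 lies on chromosome 17 (29317680-29330593, plus strand), Cd248 on chromosome 19 (5068078-5070682, plus strand) and Cilp on chromosome 9 (65265180-65280605, plus strand) of GRCm38, all as protein-coding genes. The start regions of Pi16, the gene behind most of the memberships, and of Cilp, the gene that differed between genotypes within the members, are shown from RefSeq (GRCm38.p6), 250 bases before to 50 after each annotated start. The Pi16 window is chr17:29318632-29318931 and the Cilp window chr9:65264930-65265229, both on the plus strand; the RefSeq start of Pi16 lies inside the longer gene model given above. Capitals mark a CACCC box (CACCC, or GGGTG on the other strand) in both, and in Cilp also the TATA-like TATANA.
Pi16: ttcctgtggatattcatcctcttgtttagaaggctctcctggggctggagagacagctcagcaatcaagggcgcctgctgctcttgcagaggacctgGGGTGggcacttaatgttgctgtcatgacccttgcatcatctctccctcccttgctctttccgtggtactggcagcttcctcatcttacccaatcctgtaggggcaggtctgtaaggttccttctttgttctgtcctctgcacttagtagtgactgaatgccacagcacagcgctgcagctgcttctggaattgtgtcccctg
Cilp: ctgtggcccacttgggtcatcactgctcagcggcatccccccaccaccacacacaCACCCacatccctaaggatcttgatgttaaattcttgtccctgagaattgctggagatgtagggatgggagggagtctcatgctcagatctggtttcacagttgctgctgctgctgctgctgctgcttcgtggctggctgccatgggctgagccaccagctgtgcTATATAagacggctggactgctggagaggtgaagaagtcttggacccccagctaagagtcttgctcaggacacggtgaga
Among 32851 windows of the same length, 57.5% held the CACCC box on either strand and 18.0% held TATANA on the gene's strand. A match in letters is a description of the window and not a binding site.

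Library totals ranged from 7573157 to 17083660 UMIs, and the median member held 7679 UMIs, against 7122 in the other fibroblasts. Members numbered 111, 87 and 151 in control 1 to 3 and 570, 104 and 88 in Dsp_het 1 to 3, so Dsp_het 1 held more members than the other 5 libraries together. Some barcode sequences occurred in more than 1 library (1689 of 13183), and 455 members (41.0%) carried such a barcode, from 23.2% of the members of control 3 to 80.7% of those of Dsp_het 3. Each such barcode was counted once, in the library with its most UMIs, and results that rest on them are also given without them. No doublet caller was run. The desmoplakin transcript was too rare in members to check the genotype labels (6 UMIs in 3 cells). Normalized Xist was 0, 0 and 669 CPM (UMIs of a gene scaled to a fixed total per library) in the controls and 0, 838 and 0 in Dsp_het, so 1 library of each genotype held Xist RNA.

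The Pi16 or Cd248 label was checked against genes that did not enter the gate. Mfap5, a microfibril protein of adventitial fibroblasts, had a UMI in 93.5% of members, in 69.6% of the other fibroblasts, in 17.7% of mesothelial barcodes and in 2.86% of endothelial barcodes. Its summed level was 1282 CPM in members and 357 CPM in the other fibroblasts. Dpp4, a surface peptidase named above with adventitial fibroblasts, was found in 23.0% of members (60.5 CPM) and in 3.92% of the other fibroblasts. Dpp4 was in turn found in 84.3% of 547 mesothelial barcodes (417 CPM), whose median depth was 9486 UMIs, so it was not confined to fibroblasts in these libraries. Ly6a (Sca-1) was found in 49.2% of members (510 CPM), and in 95.5% of endothelial barcodes (2428 CPM). Mfap5 thus went with the label in most members, while Dpp4 was detected in a minority of them. Whether the members lay in the adventitia was not tested.

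The background of the gate genes was read from other cell types. Pi16 had a UMI in 98.8% of members (exact Clopper-Pearson 95% interval 98.0 to 99.4%), which the rule fixed. In 9749 endothelial barcodes, with a median of 3874 UMIs, the share was 10.5%. After thinning every cell to 2000 UMIs the shares were 83.8% in members and 5.95% in endothelial barcodes. Cd248 was found in 32.0% of members, in 0.564% of endothelial barcodes and in 45.0% of mesothelial barcodes. The intervals cover counting error only.

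The EGFP reporter had a UMI in 84.8% of members (869 CPM), and Tomato in 2.07% (31 UMIs). Wt1 itself was at 21.7 CPM in members, with a UMI in 12.6% of them, against 279 CPM and 80.4% in mesothelial barcodes and 25.8 CPM and 10.0% in endothelial barcodes.

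RNA that marks other cell types was low in members and uneven between libraries. The summed endothelial markers were at 98.6, 244 and 371 CPM in control 1 to 3 and at 109, 95.3 and 133 CPM in Dsp_het 1 to 3. The summed macrophage markers were at 383 CPM in control 3 and at 2.12 to 25.8 CPM in the other 5 libraries. Pericyte and smooth muscle markers were at 25.9, 141 and 247 CPM in control and 45.0, 60.4 and 51.5 CPM in Dsp_het. T and NK cell markers had no UMI in any library. At least 3 of 6 endothelial genes were found in 39 members (3, 5 and 11 in control 1 to 3 and 16, 3 and 1 in Dsp_het 1 to 3). Members are therefore also described without these 39 cells wherever the result changed.

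Members made up most fibroblasts in every library of either genotype. Their share of gated fibroblasts was 93.3, 92.6 and 88.3% in control 1 to 3 and 91.5, 90.4 and 96.7% in Dsp_het 1 to 3. The groups overlapped, with means of 91.4 ± 2.69% and 92.9 ± 3.36% (SD, n = 3 each; two-sided exact permutation p = 0.6). With all cells thinned to 2000 UMIs before gating, the shares were 80.0, 83.9 and 68.8% in control and 80.9, 72.8 and 83.0% in Dsp_het (exact permutation p = 0.7).

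Members as a share of all kept barcodes were 4.77, 5.61 and 5.24% in control 1 to 3 and 19.8, 5.89 and 8.04% in Dsp_het 1 to 3. The 95% intervals of control 2 (4.52 to 6.88%) and Dsp_het 2 (4.84 to 7.09%) overlapped, whereas Dsp_het 1 (18.4 to 21.3%) stood above every other library. The means were 5.21 ± 0.421% and 11.3 ± 7.50% (SD, n = 3 each), a log2 ratio of 1.11, with an exact permutation p of 0.1, the smallest that 3 against 3 libraries can give. Without Dsp_het 1 the log2 ratio was 0.42. With at least 2000 UMIs per barcode, control 2 (6.495%) lay above Dsp_het 2 (6.265%), so the groups overlapped (exact permutation p = 0.2). With every barcode of several libraries left out, the shares were 2.83, 1.99 and 4.36% in control and 15.8, 2.22 and 2.44% in Dsp_het, and the groups overlapped (exact permutation p = 0.8). The share depends on the sort and on how many other EGFP-positive cells were captured, and those parts cannot be told apart.

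**Figure D1:**
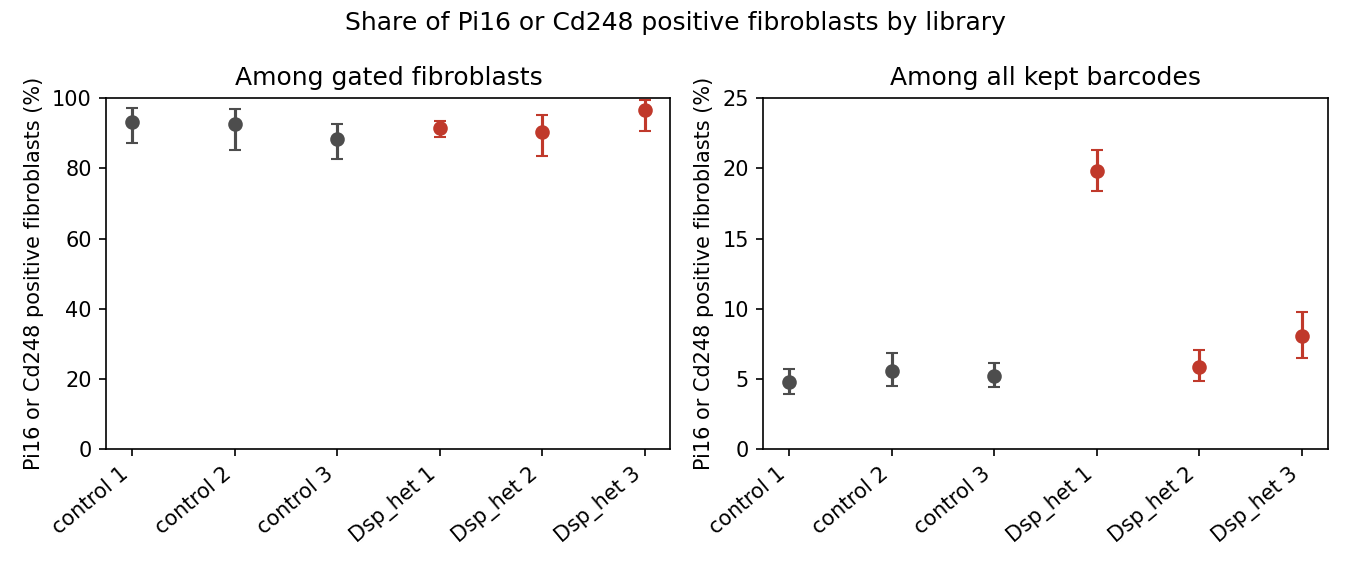
Share of Pi16 or Cd248 positive fibroblasts by library, in percent of gated fibroblasts and in percent of all kept barcodes; points are libraries of control and Dsp_het, with exact 95% binomial intervals. Shares of fibroblasts lie between 88.3 and 96.7% in both genotypes, and Dsp_het 1 stands alone at 19.8% of all kept barcodes.

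Since the gate took most fibroblasts, the variation within it was described by the amount of Pi16. This division was added after the data had been seen. Members with at least 4000 UMIs (1031, with 80 left out) were thinned to 4000 UMIs and divided at the tertiles of Pi16 UMIs in each library. The upper range (Pi16-high, 332 cells) had a mean of 16.3 Pi16 UMIs and the lower range (Pi16-low, 394 cells) a mean of 1.84. These are ranges of 1 continuous value and not types, since 418 cells lay within 1 Pi16 UMI of a boundary. UMIs were summed per library and range, and log2 differences were fitted with edgeR over 2141 genes, with the library as a block and without the 11 gate genes. Pi16 is a value that chose the members, so the ranges are described and no p-value is given.

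In the edgeR fit, 116 genes (5.42%) lay past an adjusted p of 0.05 in the higher and 62 (2.90%) in the lower direction in Pi16-high members, from which nothing is read. Normalized Clec3b, which encodes the plasminogen-binding protein tetranectin, was 1545, 1921 and 1820 CPM in the Pi16-low members of control 1 to 3 and 2651, 2248 and 1520 CPM in those of Dsp_het 1 to 3. In the Pi16-high members of the same libraries it was 3578, 3555, 3606, 4016, 4126 and 3759 CPM. Every Pi16-high value lay above every Pi16-low value, and the log2 difference was 0.95 (SE 0.08).

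Mfap5 was higher in the Pi16-high members of all 6 libraries, with 809, 720, 717, 805, 855 and 1479 CPM in Pi16-low and 2142, 1433, 1697, 1602, 1312 and 2513 CPM in Pi16-high members (log2 difference 1.00, SE 0.09). Fbln1, a fibulin of elastic matrix, lay between 1601 and 2943 CPM in Pi16-low and between 3596 and 4883 CPM in Pi16-high members, with no overlap (log2 0.88). Nbl1, which encodes a secreted antagonist of bone morphogenetic proteins, was at 117, 55.4, 69.2, 197, 183 and 131 CPM in Pi16-low and at 429, 209, 468, 566, 269 and 623 CPM in Pi16-high members (log2 1.70, SE 0.17). Thbd, the gene of thrombomodulin, a cofactor in the activation of the anticoagulant protein C, lay between 34.6 and 117 CPM in Pi16-low and between 106 and 248 CPM in Pi16-high members (log2 1.61). Nbl1 and Thbd were higher in the Pi16-high members of each library.

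Of the 38 genes in a list of universal or adventitial fibroblast genes, 23 passed the filter on low counts, and 21 of these had higher values in Pi16-high members. Their median log2 difference was 0.76, against -0.02 over all genes fitted. Besides Clec3b and Mfap5, the list held Pcolce2, an enhancer of procollagen processing (log2 0.95), the scavenging chemokine receptor gene Ackr3 (1.33), the surface sialomucin gene Cd34 (0.81), Igfbp6, which binds insulin-like growth factors (0.74), and the fibrillin gene Fbn1 (0.99), each higher in all 6 libraries. The alarmin gene Il33 (1.08) was higher in 4 of 6 libraries, and without Dsp_het 1 its log2 difference was 0.42. Ly6a, at 0.26, was also higher in 4 of 6 libraries. Dpp4 did not pass the filter, with 12.3, 0, 9.89, 28.3, 44.4 and 16.3 CPM in Pi16-low and 105.2, 62.7, 45.3, 133, 150 and 153 CPM in Pi16-high members. Cd248 itself, which the rule used, was at 6.13, 73.9, 49.4, 44.3, 27.8 and 24.5 CPM in Pi16-low and at 188, 62.7, 242, 162, 158 and 221 CPM in Pi16-high members, so control 2 went the other way from the rest.

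Of 16 elastic fibre and microfibril genes 14 had higher values in Pi16-high members, with a median log2 of 0.39. The cross-linking enzyme gene Lox (1.02), Mfap4 (0.97) and Fbln2 (0.95) were higher in all 6 libraries. Of 9 fibrillar and associated collagens 6 had higher values, among them Col1a2 (0.50), Col3a1 (0.54) and Col14a1 (1.02) in all 6 libraries, whereas Col6a3 (-1.06) was lower in all 6. Among complement genes Cd55, a membrane inhibitor (1.06), Serping1, the C1 inhibitor (0.42), and C3, the central component (0.58), were higher in all 6 libraries, and the median log2 of the 6 fitted was 0.50. Of 13 genes of transforming growth factor beta and bone morphogenetic protein signalling 9 had higher values, with a median of 0.32.

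**Figure D2:**
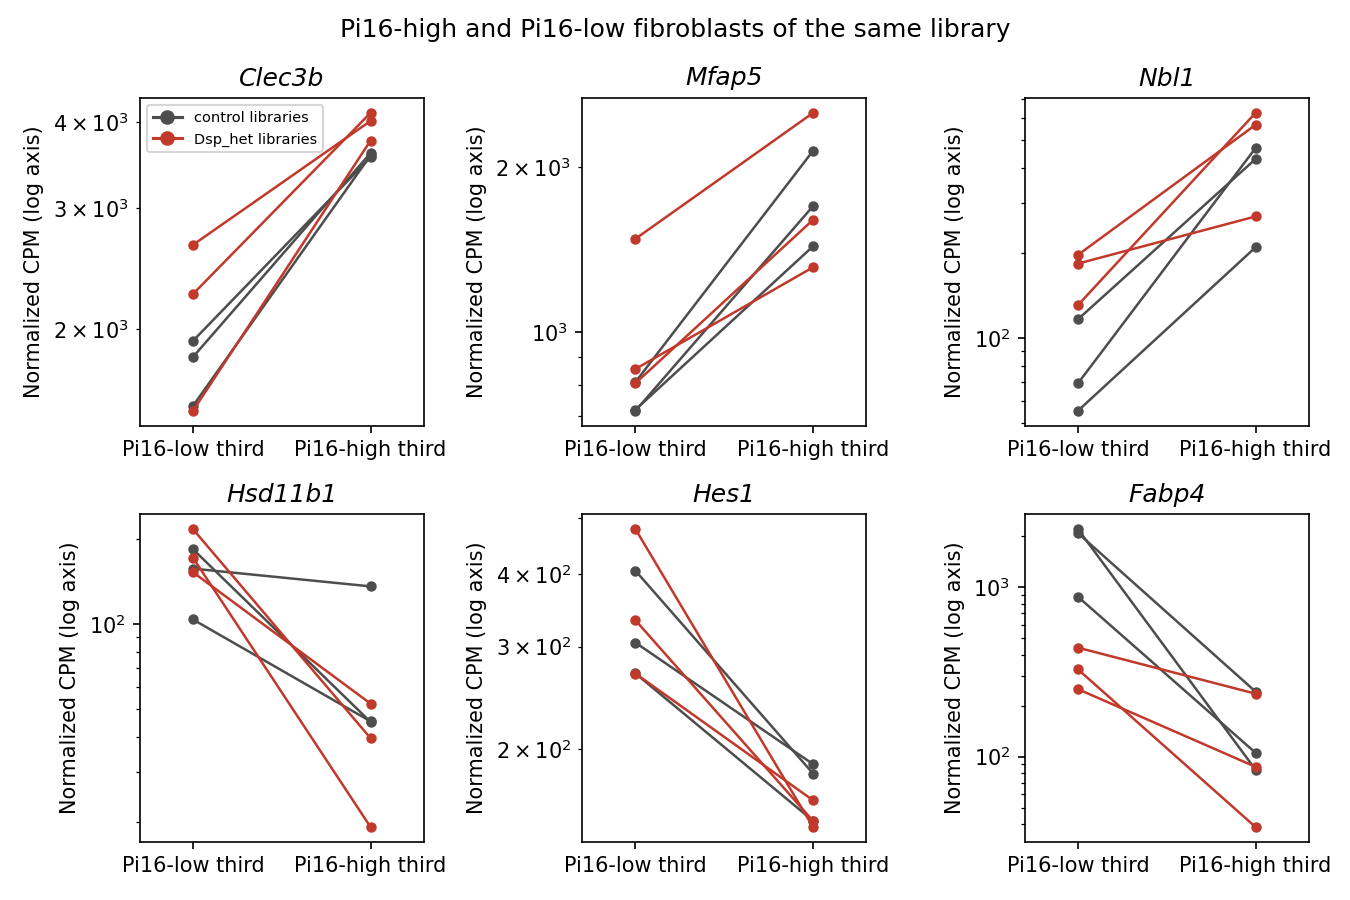
Normalized CPM (log axis) of 6 genes in Pi16-low and Pi16-high members, 1 line per library joining its values. Clec3b, Mfap5 and Nbl1 are higher, and Hsd11b1, Hes1 and Fabp4 lower, in the Pi16-high members of every library.

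Hes1, a transcriptional target of Notch signalling, was lower in the Pi16-high members of all 6 libraries, with 270, 305, 406, 478, 333 and 270 CPM in Pi16-low and 150, 188, 181, 147, 150 and 163 CPM in Pi16-high members (log2 -1.24, SE 0.15). Hsd11b1, the enzyme that reactivates glucocorticoids, was at 184, 157, 104, 153, 217 and 172 CPM in Pi16-low and 45.1, 136, 45.3, 52.4, 39.5 and 19.2 CPM in Pi16-high members (log2 -1.57). Hes1 did not overlap between the ranges, whereas Hsd11b1 did, through control 2 and control 3. Cxcl12, a chemokine that retains blood progenitors and lymphocytes, lay between 199.8 and 526 CPM in Pi16-low and between 38.4 and 156 CPM in Pi16-high members (log2 -1.35). Cxcl14 had a log2 difference of -1.80, though control 3 went the other way, from 14.8 CPM in Pi16-low to 181 CPM in Pi16-high members.

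Of 20 fitted genes of the parenchymal list 13 had lower and 7 higher values in Pi16-high members, with a median log2 of -0.16, so the list did not move as one. G0s2, an inhibitor of lipolysis (-1.16), and the type IV collagen gene Col4a1 (-0.64) were lower in all 6 libraries, whereas Smoc2 (0.39) and Htra3 (0.38) were higher in all 6. Col15a1 (-0.42) was lower in all libraries except control 3. Basement membrane genes were likewise divided, with 5 of 11 higher, among them Nid1 (0.63), Lamb2 (0.84) and Lamc1 (0.54). All 8 adipogenic and lipid genes had lower values. Fabp4, a fatty acid carrier that capillary endothelium also makes, was at 877, 2198, 2082, 439, 250 and 327 CPM in Pi16-low and 105.2, 83.7, 242, 235, 86.9 and 38.4 CPM in Pi16-high members (log2 -2.37). With the cells that held 3 or more endothelial genes left out, its log2 difference was -0.30.

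Endothelial RNA moved with this division. The summed endothelial markers were at 169, 444, 595, 117, 139 and 202 CPM in Pi16-low and at 75.8, 50, 133, 80.8, 70.3 and 57.7 CPM in Pi16-high members, and 30 Pi16-low against 7 Pi16-high cells had at least 3 of 6 endothelial genes. In control 3, the macrophage markers were at 485 CPM in Pi16-low and 20.4 CPM in Pi16-high members. With the cells of 3 or more endothelial genes left out, 21 of 22 universal genes had higher values, with a median log2 of 0.73. With barcodes of several libraries left out, 3 libraries could be fitted (control 1, control 3 and Dsp_het 1), and 23 of 23 universal genes had higher values, with a median of 0.80. Apod, at -1.42 in all 6 libraries together, was at -0.17 in that fit. The difference between Pi16-high and Pi16-low members was compared between the genotypes over 2705 genes. For Fabp4 and Hspb1 (0.0739%) the log2 difference of Pi16-high over Pi16-low lay past edgeR's threshold and was higher in Dsp_het. In the lower direction 0 genes (0.00%) lay past it, and nothing is read from these calls. At an unadjusted p under 0.05 there were 146 genes, and DESeq2 called 0.

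Members were next divided by whether a Cd248 UMI was among the same 4000 UMIs, also added after the data had been seen. Cd248-positive members numbered 231 and Cd248-negative members 800, and a negative cell may have missed the transcript. A Cd248 UMI was one of the values that chose the members, so this division too is described without p-values. Over 3335 genes in edgeR, 100 (3.00%) lay past an adjusted p of 0.05 in the higher and 58 (1.74%) in the lower direction, from which nothing is read.

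Ly6a, the surface antigen Sca-1, was at 337, 215, 230, 280, 485 and 414 CPM in Cd248-negative and 1300, 354, 845, 812, 862 and 1066 CPM in Cd248-positive members (log2 1.46, SE 0.12). Mfap5 was at 1095, 940, 952, 977, 891 and 1476 CPM in Cd248-negative and 2178, 1204, 2003, 1719, 1816 and 2585 CPM in Cd248-positive members (log2 0.87, SE 0.07). Both genes were higher in the Cd248-positive members of all 6 libraries, with the smallest ratio in control 2. Dpp4, which passed the filter here, was at 35.1, 29.5, 14.0, 40.8, 77.0 and 52.9 CPM in Cd248-negative and 72.2, 35.4, 50.1, 166, 184 and 125 CPM in Cd248-positive members (log2 1.64, SE 0.21).

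Fn1, the gene of the adhesive matrix protein fibronectin, was at 67.3, 50.6, 100, 74.9, 70.3 and 92.5 CPM in Cd248-negative and 169, 142, 225, 314, 138 and 159 CPM in Cd248-positive members, and these values did not overlap (log2 1.54). The interferon-induced gene Ifi27l2a lay between 527 and 771 CPM in Cd248-negative and between 1190 and 1746 CPM in Cd248-positive members, also without overlap (log2 1.06). Gfpt2, an enzyme of the hexosamine pathway (1.61), and the transcription factor gene Klf4 (0.82) were higher in the Cd248-positive members of all 6 libraries. Pi16, which the rule used, was at 1584, 2010, 1173, 1761, 1372 and 2075 CPM in Cd248-negative and 3670, 1628, 2529, 3160, 2253 and 3753 CPM in Cd248-positive members, so it was higher in 5 of 6 libraries.

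**Figure D3:**
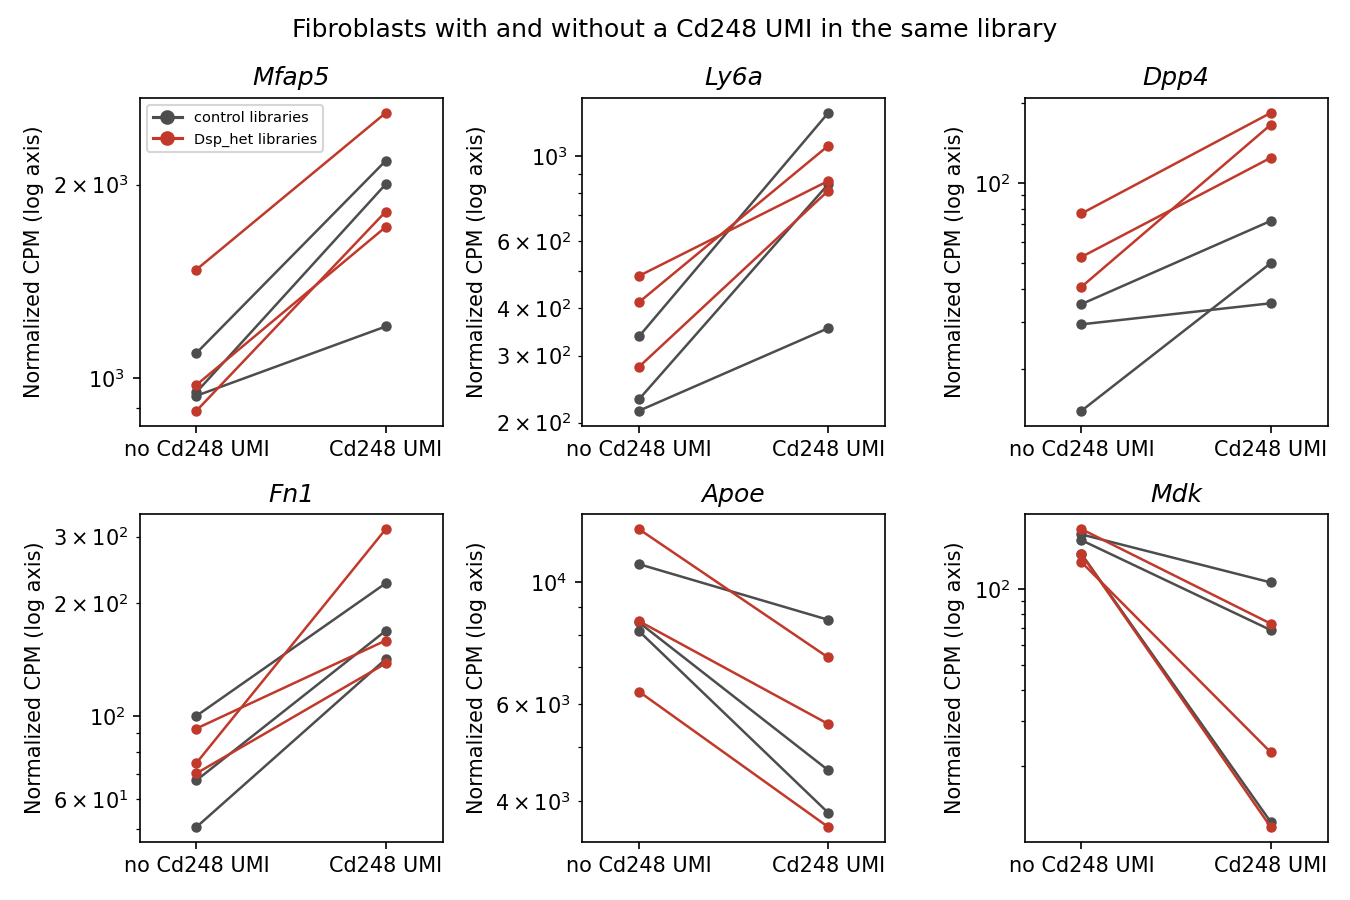
Normalized CPM (log axis) of 6 genes in Cd248-negative and Cd248-positive members, 1 line per library joining its values. Ly6a, Mfap5, Dpp4 and Fn1 are higher, and Apoe and Mdk lower, in the Cd248-positive members of every library.

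All 26 fitted genes of the universal list had higher values in Cd248-positive members, with a median log2 of 0.77 against -0.01 over all genes fitted. They included the guidance factor gene Sema3c (1.39), the fibulin-like gene Efemp1 (1.21), Ly6c1 (1.13), Il33 (1.09), Cd34 (0.60), Igfbp6 (0.53) and Clec3b (0.36). Sema3c, Efemp1, Igfbp6 and Il33 were lower in the Cd248-positive members of control 2, Efemp1 also in control 1 and Il33 also in Dsp_het 3. Without Dsp_het 1, the log2 difference of Il33 was 0.59.

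Apoe, the lipid carrier apolipoprotein E, was lower in the Cd248-positive members of all 6 libraries, with 8137, 10770, 8438, 12470, 8486 and 6317 CPM in Cd248-negative and 3803, 8531, 4545, 7286, 5516 and 3583 CPM in Cd248-positive members (log2 -0.75, SE 0.06). Mdk, the heparin-binding growth factor midkine, was at 138, 164, 156, 172, 137 and 128 CPM in Cd248-negative and 12.03, 106, 68.9, 73.0, 11.5 and 22.7 CPM in Cd248-positive members, with no overlap (log2 -1.47, SE 0.22). Of 20 fitted parenchymal genes 16 had lower values, with a median log2 of -0.30. Hsd11b1 (-1.18), Lpl, the lipoprotein lipase gene (-0.59), G0s2 (-0.85) and Inmt (-0.58) were lower in all 6 libraries. Of 10 adipogenic and lipid genes 9 had lower values, with a median of -0.40. Aldh1a1, which encodes an enzyme of retinoic acid synthesis, had a log2 difference of -0.65 and was lower in 5 of 6 libraries, with Dsp_het 2 going the other way.

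Of 9 fibrillar and associated collagens 7 had lower values in Cd248-positive members, with a median log2 of -0.12. Col14a1 (0.46) was higher and Col6a3 (-0.79) lower in all 6 libraries, and Col1a2 (-0.09) and Col3a1 (-0.12) lay near 0. Among complement genes Cd55 (0.78) was higher in 5 of 6 libraries, with control 2 going the other way. The Pi16 and the Cd248 division used the same cells, so their values stand side by side here and the difference between them was not tested.

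Endothelial markers were at 104, 193, 273, 95.8, 103 and 123 CPM in Cd248-negative and at 75.0, 214, 263, 75.2, 45.5 and 56.8 CPM in Cd248-positive members. Endothelial barcodes in these libraries also carry Ly6a at 2428 CPM. With barcodes of several libraries left out, only control 3 and Dsp_het 1 could be fitted, and 27 of 27 universal genes had higher values, with a median log2 of 0.73.

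**Figure D4:**
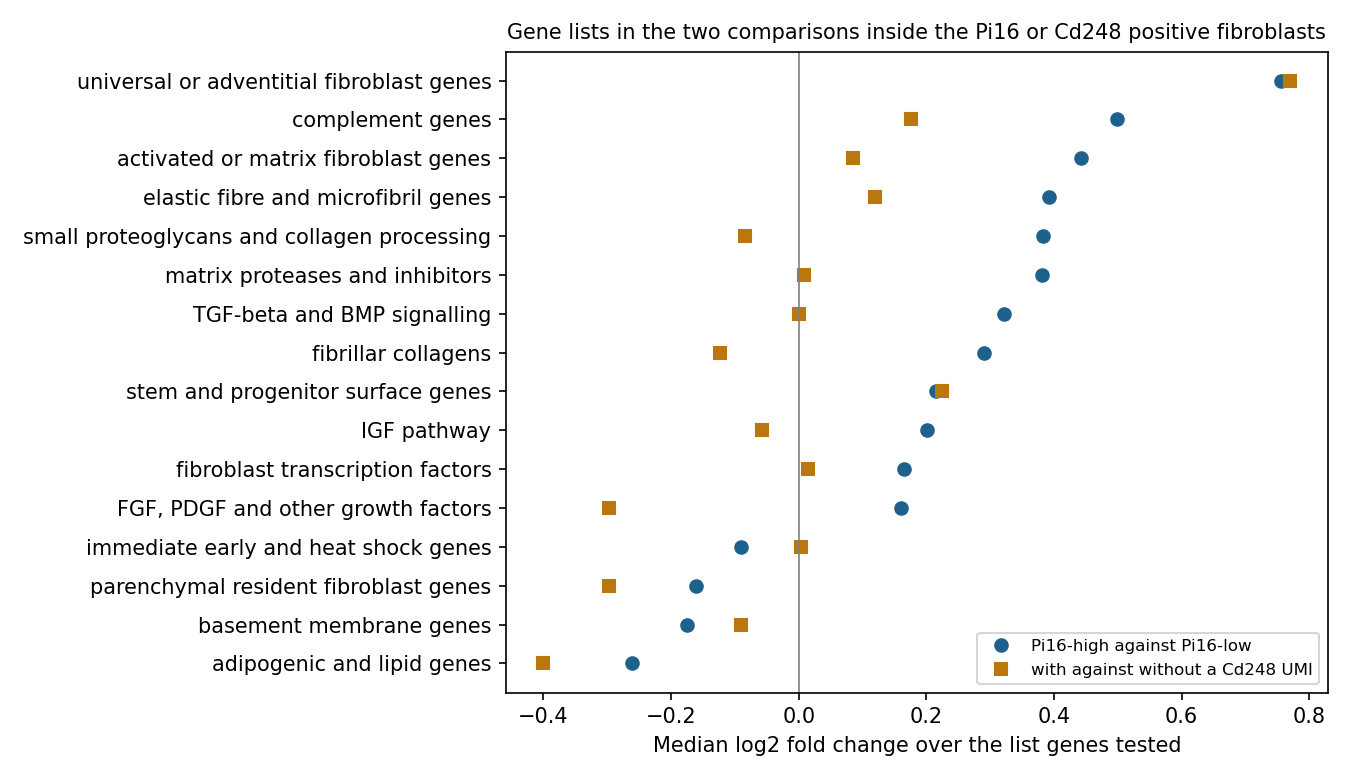
Median log2 difference over the tested genes of each list with at least 6 of them, 1 point for Pi16-high against Pi16-low and 1 for Cd248-positive against Cd248-negative members; the grey line is 0. The universal or adventitial list lies at 0.76 and 0.77, and the complement list at 0.50 and 0.18.

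Against the 102 other fibroblasts, members can only be described, because Pi16 and Cd248 in the same cells chose them. Control 3, Dsp_het 1 and Dsp_het 2 had at least 10 other fibroblasts. In those 3 libraries edgeR's adjusted p passed for 39 of 6841 genes (0.570%) in the higher and 18 (0.263%) in the lower direction, from which nothing is read. Mfap5 was at 1302, 1221 and 1124 CPM in members and 248, 458 and 501 CPM in other fibroblasts of control 3, Dsp_het 1 and Dsp_het 2. Ly6a was at 494, 470 and 633 against 109, 134 and 152 CPM, and Fbln2 at 576, 877 and 996 against 176, 373 and 326 CPM. In all of these the members' values lay above those of the other fibroblasts. Efemp1, of the universal list, was at 74.0, 92.7 and 74.5 against 238, 163 and 35.0 CPM. Fn1 was at 151, 149 and 106 against 382, 353 and 46.6 CPM. Both were thus lower in the members of control 3 and Dsp_het 1.

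The other fibroblasts held more Hsd11b1 (181, 201 and 268 against 91.5, 101 and 109 CPM in members). Col15a1 was also higher in them, at 444, 446 and 524 against 425.5, 373 and 350 CPM. Cxcl14 was at 36.2, 315 and 128 against 124.5, 195 and 280 CPM, so it was higher in the other fibroblasts of Dsp_het 1 only. Cxcl13, a chemokine that attracts B cells, was at 1637 and 1829 CPM in the other fibroblasts of control 3 and Dsp_het 1, against 69.6 and 18.6 CPM in members, and had no UMI in either class in Dsp_het 2. Pf4, a platelet and macrophage chemokine, was at 506, 35.0 and 46.6 CPM in other fibroblasts and 60.1, 6.71 and 6.30 CPM in members. The summed macrophage markers of the other fibroblasts were at 2667, 2.75 and 12.8 CPM in these libraries. Their endothelial markers were at 778, 71.5 and 76.7 CPM. The part of such RNA in the Pf4 values was not tested. The other fibroblasts numbered 20 in control 3 and 11 in Dsp_het 2. Dsp_het 1 alone gave 53 of the 102 other fibroblasts. The difference between members and other fibroblasts was also fitted against genotype, but with control 3 the only control library no call is read from it: 6 of 8833 genes (0.0679%) lay past edgeR's threshold in the higher and 4 (0.0453%) in the lower direction, and DESeq2 called 0. With cells thinned to 2000 UMIs before gating, which leaves all 6 libraries, 0 of 2968 genes passed in edgeR and 95 had an unadjusted p under 0.05.

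The genotypes were compared over the members of the 6 libraries with UMIs summed per library, over 8312 genes. One gene differed at the threshold: Cilp was higher in Dsp_het (0.0120% of genes tested), and 0 genes (0.00%) were lower (edgeR's quasi-likelihood test, Benjamini-Hochberg). At an unadjusted p under 0.05 there were 285 genes in both directions together, and DESeq2 called 2 higher and 1 lower. Genes whose 3 Dsp_het values all lay above the 3 control values made up 4.08% of those tested, and those with all values below, 3.68%.

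Cilp encodes cartilage intermediate layer protein, a secreted matrix protein of cartilage and of fibroblasts in stressed hearts, known to bind transforming growth factor beta. It was at 29.4, 22.0 and 26.8 CPM in control 1 to 3 and at 98.1, 89.8 and 75.0 CPM in Dsp_het 1 to 3. The groups did not overlap, with means of 26.1 ± 3.78 and 87.6 ± 11.7 CPM (SD, n = 3 each), and the log2 difference was 1.74 (SE 0.20, edgeR adjusted p = 0.00411). Of the members of control 1 to 3, 9.01, 9.20 and 13.2% had a Cilp UMI, against 23.3, 23.1 and 19.3% in Dsp_het 1 to 3, and 0.0410% of endothelial barcodes had one. At 2000 UMIs per cell the shares were 4.55, 3.49 and 2.00% against 9.40, 10.7 and 8.24%.

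Without Dsp_het 1 the log2 difference in Cilp was 1.63 (edgeR adjusted p = 0.0281). With barcodes of several libraries left out it was 1.88 (edgeR adjusted p = 0.0423), and over 17 alternatives it ranged from 1.63 to 1.88 and passed in 15. It missed the threshold without control 2 (1.65, edgeR adjusted p = 0.0636) and without control 3 (1.75, edgeR adjusted p = 0.0547). Cilp was also separated by genotype within Cd248-negative members, at 26.4, 16.9 and 32.6 CPM in control and 97.4, 90.4 and 61.7 CPM in Dsp_het, and within Cd248-positive members, at 24.1, 17.7 and 12.5 against 90.7, 103 and 34.0 CPM. The Cd248-positive cells numbered 20, 14 and 40 in control and 113, 22 and 22 in Dsp_het. Their control values and that of Dsp_het 3 thus rest on few UMIs. These cells are part of those tested above and add no separate support. In Pi16-low members it had no UMI in any control library, which allows up to 18.8, 27.8 and 15.0 CPM in control 1 to 3 (3 counts of each library's total), and was at 60.2, 27.8 and 57.2 CPM in Dsp_het. In Pi16-high members it was at 67.6, 31.4 and 20.1 CPM in control and 104.7, 229 and 28.8 CPM in Dsp_het, and these groups overlapped.

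**Figure D5:**
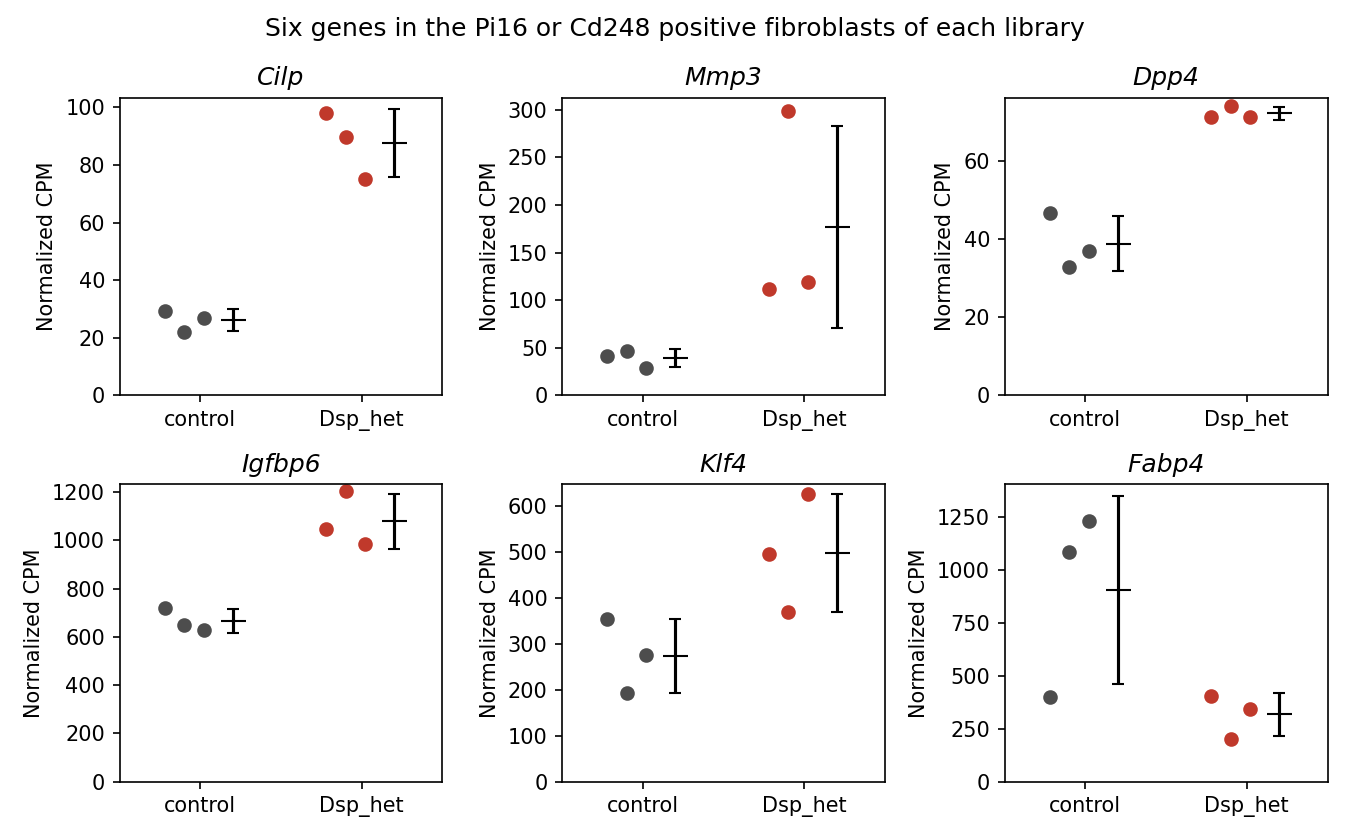
Normalized CPM in the members of each control and Dsp_het library for Cilp and for Mmp3, Dpp4, Igfbp6, Klf4 and Fabp4, which missed the threshold; points are libraries, and the mark beside them is the group mean with its SD. Cilp lies between 22.0 and 29.4 CPM in control and between 75.0 and 98.1 CPM in Dsp_het.

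Other genes missed the threshold, and those named here are not a full ranking. Pttg1 was at 23.35, 37.7 and 33.3 CPM in control and 68.9, 60.6 and 53.3 CPM in Dsp_het, with no overlap. Mmp3, the matrix-degrading enzyme stromelysin 1, was at 41.6, 47.1 and 29.0 CPM in control and 112, 299 and 119 CPM in Dsp_het, with no overlap (log2 2.18, SE 0.36, edgeR adjusted p = 0.116). Igfbp6 was at 722, 649 and 627 against 1048, 1203 and 983 CPM, also without overlap (log2 0.69, SE 0.14, edgeR adjusted p = 0.437, DESeq2 adjusted p = 0.042). Dpp4 was at 46.7, 33.0 and 36.9 against 71.4, 74.1 and 71.4 CPM (log2 0.88, edgeR adjusted p = 0.542).

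Of the genes with lower values in Dsp_het, Rbp7, a retinol-binding protein of capillary endothelium, was at 41.6, 51.8 and 129 CPM in control and 17.3, 26.1 and 24.4 CPM in Dsp_het (log2 -1.85, edgeR adjusted p = 0.437, DESeq2 adjusted p = 0.012). Fabp4 was at 401, 1082 and 1228 against 404, 204 and 344 CPM, so control 1 overlapped with Dsp_het (log2 -1.50, edgeR adjusted p = 0.572). Rnaset2b was at 74.1, 117.8 and 88.3 against 19.0, 38.6 and 61.4 CPM. Stmn2 was at 13.2, 39.3 and 29.7 against 6.92, 10.4 and 0.90 CPM, and Nmrk1 at 20.3, 17.3 and 26.05 against 10.9, 8.35 and 4.52 CPM. Rnaset2b, Stmn2 and Nmrk1 did not overlap between genotypes and missed the threshold. Of 14 tested endothelial markers 13 had lower values in Dsp_het, none past the threshold, with a median log2 of -1.01. With cells of 3 or more endothelial genes left out this median was -0.06, and without control 3 it was -0.33.

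The genes that chose the members are given as values only. Normalized Pi16 was 2003, 1927 and 1565 CPM in control and 2099, 1406 and 2360 CPM in Dsp_het. Cd248 was at 123, 72.2 and 130 against 110, 115 and 192 CPM, and both genes overlapped between genotypes. Lum, the proteoglycan lumican, was at 2183, 2076 and 2562 CPM in control and 1879, 1799 and 1914 CPM in Dsp_het, without overlap.

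By function, the lists are set beside the median log2 difference of all genes tested, 0.00. Of 33 tested universal or adventitial genes 30 had higher values in Dsp_het and none passed, with a median log2 of 0.29. Of these, Dpp4, Igfbp6, Anxa3, Efemp1 and Heg1 did not overlap between genotypes. Over all genes tested, 4.08% lay wholly higher in Dsp_het. With barcodes of several libraries left out, 22 of 26 had higher values, with a median of 0.17. Of 13 activated or matrix fibroblast genes 11 had higher values and Cilp alone passed; Timp1, the metalloproteinase inhibitor, was at 53.8, 33.0 and 57.9 against 79.6, 88.8 and 66.9 CPM without passing. Fibrillar collagens had 3 of 9 genes with higher values and a median of -0.09, and parenchymal genes 11 of 22 and a median of 0.00.

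The signalling lists had higher values without a call. Immediate early and heat shock genes, which respond to tissue dissociation, had 20 of 24 with higher values and a median of 0.31. Junb was at 1655, 1173 and 1497 CPM in control and 2185, 1769 and 2065 CPM in Dsp_het. Klf4 was at 354, 193 and 276 against 496, 370 and 626 CPM. The heat shock gene Hspb1 went the other way, at 243.6, 282.7 and 298.1 against 231, 218.3 and 234.9 CPM, without overlap. The WNT pathway had 16 of 19 genes with higher values (median 0.31), growth factors 17 of 18 (median 0.26), and transforming growth factor beta and bone morphogenetic protein genes 20 of 25 (median 0.16), none past the threshold. Tgfb1 itself had a log2 difference of 0.40, Postn, the matricellular protein periostin, -0.61, and EGFP 0.06, each with an edgeR adjusted p of 0.999.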

How the data were processed

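Raw UMI counts of 31055 genes in 18283 barcodes were deposited by the authors, with barcodes, gene symbols and per-barcode totals as further deposited columns; the totals equalled the column sums for all 18283 barcodes. The submitters' processing notes name GRCm38 and Seurat, without its version. Which aligner and counter produced the matrix is not given in the sources used here; per the labels, each library has a sample number, and the barcode suffix gave the library.

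Barcodes with at least 1000 UMIs were kept, and a barcode sequence found in several libraries was kept once. The gate is described in the report. The members and gene lists were chosen with earlier results of these data known. UMIs were summed per library and class (at least 10 cells), filtered with filterByExpr (minimum count 10), scaled by TMM and tested with edgeR 4.0.16 (quasi-likelihood, R 4.3.3) at an adjusted p of 0.05. DESeq2 1.42.0 was an alternative, as were other filters and scalings, each library left out, and fits without shared barcodes or cells with endothelial RNA. The genotype fit used all 6 libraries and no block. Named genes were the 12 largest calls per direction with the same sign in every library and at least 20 CPM, up to 4 calls per list, and where fewer than 10 passed the 5 smallest p per direction; other members of the lists were chosen after their values were seen. Gate genes, and the divisions of members by Pi16 and Cd248, are given without a p-value, since both genes chose the members. The flagged genotype differences of the Pi16 division are the exception, printed with adjusted p-values from which nothing is read.

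In simulated data, the genotype test over 8225 genes recovered 31.9% of genes changed by 1 and 99% of those changed by 2 on the log2 scale. The simulation gave every gene the same dispersion between libraries, so these rates need not hold for genes that varied more. Of 177 genes looked up, 175 were matched to a position in the GRCm38 annotation. RefSeq promoter windows were used for Pi16 and Cilp.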

Additional observations from a re-analysis of the deposited data

Results flagged for a closer look

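Within members, the log2 difference of Pi16-high over Pi16-low cells lay past edgeR's threshold between genotypes for 2 of 2705 genes (0.0739%). This log2 difference was higher in Dsp_het for both genes, with 3 libraries against 3. The comparison was added after the data had been seen. Pi16 is a value that chose the members, so this test cannot decide whether the genotypes differ. The edgeR adjusted p-values are printed only to identify the 2 flagged calls, and nothing is read from them. Fabp4 (edgeR adjusted p = 0.0001733) was at 105.2, 83.7 and 242 CPM in Pi16-high against 877, 2198 and 2082 CPM in Pi16-low members of control 1 to 3. In Dsp_het 1 to 3 it was at 235, 86.9 and 38.4 against 439, 250 and 327 CPM. The small heat shock gene Hspb1 (edgeR adjusted p = 0.02331) was at 233, 240.5 and 216 against 270, 526 and 371 CPM in control and at 250, 229 and 345 against 178, 150 and 180 CPM in Dsp_het. DESeq2 called neither. In edgeR 0 genes passed with the cells of 3 or more endothelial genes left out, and 0 without Dsp_het 1. The endothelial marker sums of the same classes, higher in the Pi16-low members of control 2 and 3, stand in the report, and their part in these differences was not tested.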

How the results depend on the processing

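The share of members among fibroblasts had a log2 ratio of 0.0235 (Dsp_het over control), which ranged from -0.00656 to 0.0423 with 1 library left out and was -0.000595 without control 3. The number of genes past the threshold depended on the setting in every fit, and the cause was not tested.

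For members against other fibroblasts (39 higher, 18 lower), DESeq2 called 24 and 10, no filter on low counts 118 and 62, cells of 2000 to 8000 UMIs 8 and 6, and the fit with no replicate block (library) 1 and 0. Leaving out barcodes of several libraries gave 10 higher, at least 5 of 7 fibroblast genes 11 lower and cells with endothelial RNA left out 28 lower. With 1 library left out 14 to 52 were higher and 12 to 39 lower. Fn1 turned to 1.67, GFP to -0.33 and Wt1 to 0.26 without barcodes of several libraries, Fn1 to 1.64 and GFP to -0.32 in cells of 2000 to 8000 UMIs, and Cd9 to -0.01 when thinned.

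For the genotype within members (1 higher, 0 lower), DESeq2 called 2 and 1, no filter 52 and 75, and leaving out barcodes of several libraries 3 and 1. With 1 library left out 0 to 4 were higher and 0 to 17 lower, the 17 without control 1. Same-numbered control and Dsp_het libraries had deviations correlated at 0.015, -0.053 and 0.041, and differently numbered ones at -0.098 to 0.08. With 3 libraries per group these values cannot decide whether the replicate numbers pair the samples, and nothing in the labels says so. A fit with the replicate block called 5 higher and 2 lower. GFP turned to -0.30 without barcodes of several libraries. With 1 library left out GFP ranged from -0.07 to 0.18, Mfap5 from -0.08 to 0.30 and Tgfb1 from -0.10 to 1.62, with Tgfb1 below 0 without control 1 and without Dsp_het 3.

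For Pi16-high against Pi16-low members (116 higher, 62 lower), DESeq2 called 61 and 19, the fit with no replicate block 51 and 21, leaving out barcodes of several libraries 73 and 27, and no filter 126 lower. With 1 library left out 85 to 124 were higher and 41 to 77 lower. For Cd248-positive against Cd248-negative members (100 higher, 58 lower), DESeq2 called 59 and 24, the fit with no replicate block 40 and 13, leaving out barcodes of several libraries 7 and 3, in 2 libraries, and no filter 130 lower. With 1 library left out 66 to 100 were higher and 40 to 51 lower. GFP turned to 0.15 without barcodes of several libraries.

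For the genotype difference of the member contrast (6 higher, 4 lower), DESeq2 and thinning to 2000 UMIs each gave 0 and 0, and including shared barcodes 11 and 10. GFP turned to 0.07 with DESeq2 and 0.27 without cells with endothelial RNA, Postn to -0.44 without those cells and -0.18 when thinned, and Cxcl13 to 0.04 and Tgfb1 to 0.45 with shared barcodes included. Leaving out 1 of its 3 libraries, or all barcodes of several libraries, was not run because no fit remained. For the genotype difference of the Pi16 contrast (2 higher, 0 lower), DESeq2 and the fit without endothelial RNA gave 0 higher, no filter 2 lower and leaving out barcodes of several libraries 2 lower. With 1 library left out 0 to 2 were higher and 0 to 1 lower. GFP ranged from -0.47 to 0.06 with 1 library left out and was 0.58 without barcodes of several libraries, where Dpp4 was 0.09.

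Libraries of 87 to 570 members limit the depth of each sum: genes under the filter on low counts were not tested, and a change of 1 on the log2 scale between genotypes would often be missed.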
